A study of Ovis aries with 9 samples.

Results

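Gene expression in the liver was compared between Tan sheep given 2% succinate and Tan sheep given 1% succinate in the diet, using 6 of the 9 libraries of the study. The 3 libraries at 2% and the 3 at 1% were chosen by the treatment label, and 3 libraries from sheep on the basal diet served as background. Tan sheep are a fat-tailed Chinese breed, and the labels describe 30 males aged 5 months that were kept 2 to a stall in 5 stalls per diet for a pretrial period of 10 days and a trial of 60 days. All groups received the basal diet, to which the labels add 1% or 2% succinate in the dosed groups. RNA came from whole liver tissue with no cell type purified, and the group codes of the design text (T1, T2) are not those of the titles (T2, T3). Nothing in the labels ties a library to 1 animal or stall. The p-values therefore measure the spread among the deposited libraries, some of which may be technical.

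Succinate is an intermediate of the tricarboxylic acid cycle, where succinate dehydrogenase oxidises it to fumarate. In ruminants the rumen ferments carbohydrate to volatile fatty acids, and the liver turns propionate into succinyl-CoA and then into glucose. The same hepatocytes answer growth hormone with insulin-like growth factor 1, and answer a shortage of glucose by oxidising fatty acids and releasing the hormone FGF21.

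The labels conflict for 1 library. Library 3 at 1% carries 1% in its treatment label and 2% in its title, and it was kept at 1%. It also stood apart from the rest: its mean root-mean-square distance to the other 8 libraries, in log2(FPKM + 1) over all tested genes, was 0.633, against 0.493 to 0.576 for the others. Its mean distance was 0.549 to the other libraries at 1% and 0.6 to those at 2%. These distances cannot settle its dose. On the same measure 1% library 1 lay nearer to 2% (0.451) than to 1% (0.557), and 1% library 2 stood at 0.513 from both. Values without 1% library 3, or with it placed at 2%, are given for some of the leading genes and lists. Recovered reads, which are the whole reads implied by the steps of the FPKM values, numbered 13818648 to 18172528 per library. The tissue matched its label. Summed hepatocyte markers stood at 73061 to 85247 FPKM in the 6 libraries, and the 12 skeletal muscle markers together at 1.05 to 5.06 FPKM, with MYH1 and CKM listed at 0 in every library.

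The first question was how many genes differed between the doses. With limma on log2(FPKM + 1), 0 of 11944 tested genes (0%) passed a Benjamini-Hochberg adjusted p of 0.05, and the smallest adjusted p was 0.417. Without 1% library 1 a single gene passed, an unnamed LOC gene, and limma-voom on recovered reads called 0. Without adjustment 894 genes (7.48%) reached a p under 0.05, 740 of them higher at 2% (6.2%) and 154 lower (1.29%). The 3 libraries at 2% lay wholly above the 3 at 1% for 1308 genes (11%) and wholly below them for 398 (3.33%). The smaller set whose groups did not overlap and whose log2 difference was at least 1 held 46 genes higher at 2% and 27 lower. Log2 differences lay above 0 for 61.8% of all tested genes and below 0 for 38.2%, which is the background for counts of list members by sign. The 95% interval of the difference lay within a log2 change of 1 in both directions for 9900 genes, 82.9% of those tested. The scale of log2(FPKM + 1) understates changes of low genes, so this share is not one of genes that differ less than 2-fold. SCD5, for example, had an interval of 0.095 to 0.98 and a ratio of group means of 2.23. The excess of higher genes changed with the scaling: across the tested genes the median log2 change stood at 0.07, and median-ratio scaling moved it to -0.03 and the split to 456 higher and 522 lower. Quantile scaling gave 456 higher and 399 lower. Without 1% library 3 the count was 514, with 389 higher and 125 lower, and with that library placed at 2% it was 257, with 140 and 117. The count was 481 without 2% library 1, 538 without 2% library 3 and 1379 without 1% library 1.

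**Figure D1:**
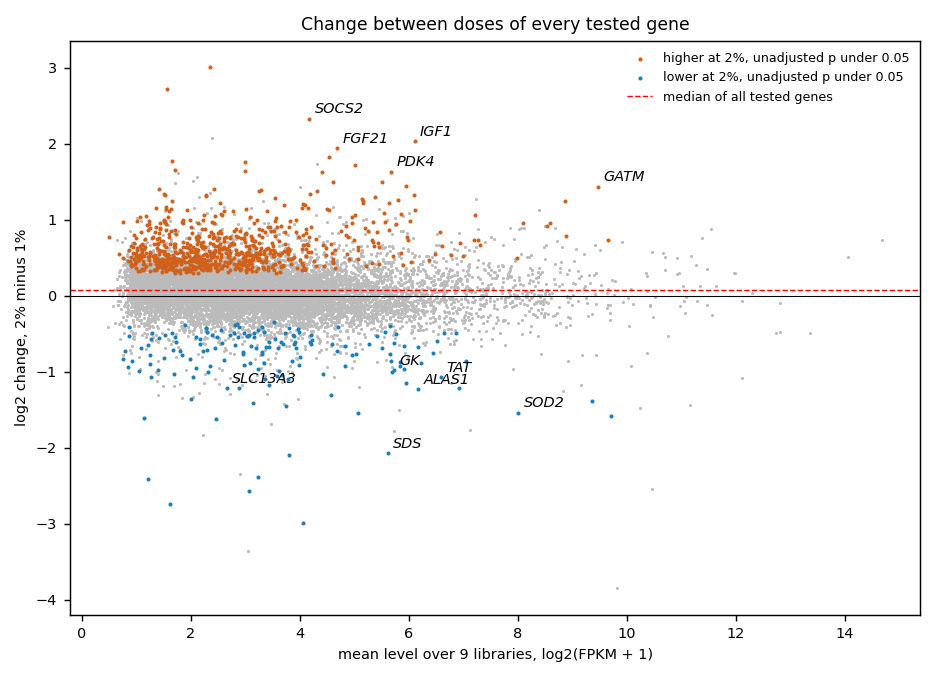
Each point is 1 of the 11944 tested genes, with its mean log2(FPKM + 1) over the 9 libraries on the horizontal axis and its log2 change from 1% to 2% succinate on the vertical axis. Coloured points have an unadjusted p under 0.05 (740 higher, 154 lower), the dashed line is the median of all genes at 0.07, and IGF1, SOCS2, FGF21, PDK4 and GATM lie far above it.

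**Figure D2:**
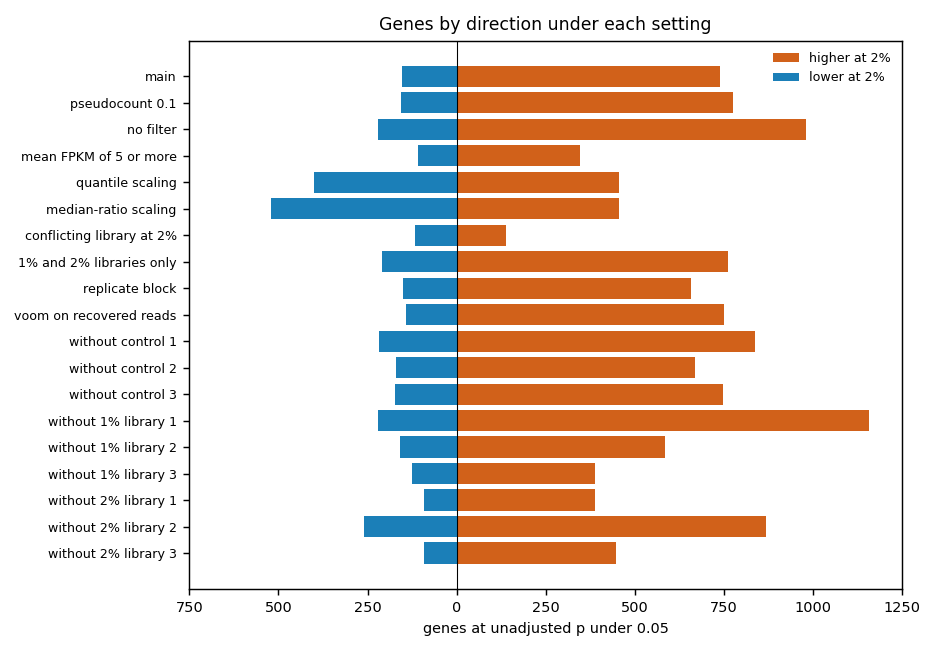
Bars give the number of genes at an unadjusted p under 0.05 that were higher (right) or lower (left) at 2% than at 1% under each processing setting. The main setting gave 740 and 154, and placing the library of conflicting labels at 2% gave 140 and 117.

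Because no gene passed, the genes named here are those with the smallest p in each direction whose groups did not overlap, together with members of gene lists. None of their differences passed after adjustment over all genes. The lists with at least 5 tested members held 775 distinct genes, of which 29 (higher at 2%) and 18 (lower) reached a p under 0.05 without adjustment. These counts were 22 and 15 without 1% library 3 and 9 and 10 with it placed at 2%. They were 79 and 33 without 1% library 1, 19 and 12 without 2% library 1, 48 and 28 without 2% library 2 and 23 and 12 without 2% library 3. Over all tested genes 6.2% were higher and 1.29% lower at that p, which is the background for counts of list members.

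The leading difference lay in the growth hormone axis. IGF1, the growth factor that the liver secretes in response to growth hormone, stood at 180.4, 101 and 209.5 FPKM at 2% and at 42.3, 28.4 and 43.5 FPKM at 1%. Every library at 2% was above every library at 1% and also above the controls, which stood at 51.8, 59.1 and 48.6 FPKM. The ratio of the group means was 4.30, and the log2 difference was 2.04 (SE 0.282), with a 95% interval of 1.41 to 2.67 (unadjusted p = 3.49e-05, adjusted p = 0.417, limma). It was 2.14 without 1% library 3 and 1.69 with that library placed at 2%. SOCS2, which growth hormone induces and which dampens the growth hormone receptor, stood at 50.5, 21.4 and 44.2 FPKM at 2%, 16.5, 2.80 and 5.14 at 1% and 15.7, 26.0 and 20.0 in controls. Its lowest library at 2% was above its highest at 1%, and the log2 difference was 2.33 (SE 0.515), or 2.20 without 1% library 3 and 1.55 with it at 2%. The adjusted p was 0.423 (limma).

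The carriers of circulating IGF1 lay in the same direction. IGFBP3, its main binding protein, stood at 280.2, 127 and 188 FPKM at 2% against 120.0, 96.9 and 61.8 at 1%, with a log2 difference of 1.06 (SE 0.318). IGFALS, the third partner of that complex, stood at 67.6, 41.5 and 38.1 FPKM at 2% against 40.9, 19.2 and 8.64 FPKM at 1%, and its groups overlapped through 1% library 1. These were the 4 of 21 tested members of the list for growth hormone, IGF and insulin signalling that were higher at an unadjusted p under 0.05, or 19.0% against 6.2% of all genes, and 0 members were lower. The count of 4 was 3 without 1% library 3 and 1 with that library placed at 2%, and 3 to 5 as single libraries were left out. The receptor gene GHR stood at 304 ± 38.2 FPKM at 2% and 225 ± 58.1 at 1% (SD, n = 3), with groups that overlapped. STAT5A and STAT5B, the transcription factors downstream of the receptor, had log2 differences of 0.20 and 0.16. IGF2, a related growth factor, stood at 81.3 ± 5.19 FPKM at 2% and 84.9 ± 5.53 FPKM at 1%, a log2 difference of -0.06 with an interval of -0.41 to 0.28. The insulin receptor gene INSR (0.08), the kinase genes AKT1 (-0.01) and AKT2 (-0.06) and the adaptor IRS1 (-0.41) had log2 differences near or below 0. The list's median log2 difference was 0.17, beside 0.07 for all genes, and 0.09 with median-ratio scaling beside -0.03. GHR, IGFBP3, IGFALS, STAT5A, STAT5B, IGF2, INSR, AKT1, AKT2 and IRS1 were named after their values were seen.

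**Figure D3:**
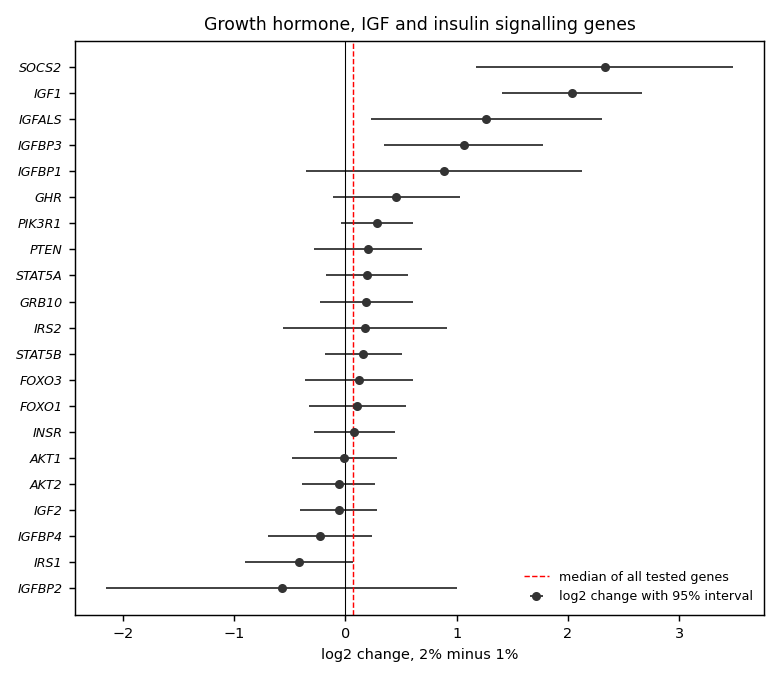
Points are the log2 changes from 1% to 2% succinate of the 21 tested genes of growth hormone, IGF and insulin signalling, with bars for the 95% interval and a dashed line at the median of all genes. SOCS2, IGF1, IGFALS and IGFBP3 have intervals above 0, and the intervals of the other 17 genes include 0.

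Several genes of the fasting response and of glucose output stood higher at 2% than at 1%, though most list members did not reach an unadjusted p under 0.05. FGF21, the hormone that the fasted or protein-restricted liver secretes, stood at 39.5, 40.4 and 43.5 FPKM at 2%, 9.75, 4.74 and 20.6 at 1% and 53.2, 29.5 and 28.6 in controls. The libraries at 2% lay close together, and all lay above those at 1% (log2 difference 1.94, SE 0.42, adjusted p = 0.423, limma), with a difference of 2.42 without 1% library 3. PDK4, the kinase that inhibits pyruvate dehydrogenase and spares glucose, stood at 110.4, 39.3 and 72.7 FPKM at 2%, 28.1, 24.5 and 14.0 at 1% and 98.6, 76.0 and 83.0 in controls. Its level at 2% varied from library to library, with library 2 nearest to the 1% group, and the log2 difference was 1.63 (SE 0.366), or 1.34 without 1% library 3 and 0.79 with it at 2%. These were the 2 of 10 tested members of the ketone body and fasting list that were higher at that p (20.0% against 6.2% of all genes). Without 2% library 2 there were 4, and with 1% library 3 at 2% there was 1 and another member was lower. The list's median of 0.22 became -0.03 with 1% library 3 placed at 2%. CPT1A, which admits fatty acids to the mitochondrion, had a log2 difference of -0.12 and was named after its values were seen.

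In gluconeogenesis 8 of 13 tested members lay above 0, close to the 61.8% of all genes, and the median log2 difference was 0.37, or 0.17 without 1% library 3 and -0.07 with that library placed at 2%. G6PC1, the phosphatase that releases free glucose, stood at 79.4, 53.7 and 88.4 FPKM at 2%, 50.2, 34.7 and 29.4 at 1% and 52.2, 64.1 and 56.2 in controls, with no overlap between the doses. It was the only member of the list at an unadjusted p under 0.05 (log2 difference 0.94, SE 0.247), with a difference of 0.78 without 1% library 3 and 0.46 with it at 2%. PC, which carboxylates pyruvate to oxaloacetate, stood at 101, 104 and 159 FPKM at 2% and 54.6, 90.2 and 61.3 at 1%, and 1 control reached 169 FPKM. PCK1, which makes phosphoenolpyruvate from oxaloacetate and was named after its values were seen, stood at 686, 216 and 437 FPKM at 2% and 453, 185 and 194 FPKM at 1%, with wide overlap.

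In glycogen metabolism 3 of 16 members (18.8%, against 6.2% of all genes) were higher at an unadjusted p under 0.05 and 0 were lower, with a median of 0.28 with and without 1% library 3 and 0.03 with it at 2%. The count of 3 was 2 without 1% library 3, 2 (with 2 lower) without control library 2, 1 without 2% library 1, 6 without 2% library 2 and 1 with 1% library 3 at 2%. UGP2, which makes the UDP-glucose that glycogen synthase uses, stood at 95.6, 89.3 and 122 FPKM at 2%, 40.1, 46.1 and 70.6 at 1% and 76.5, 43.7 and 38.9 in controls. PHKA2, a subunit of the kinase that activates glycogen phosphorylase, stood at 11.3, 8.87 and 9.79 FPKM at 2% and 7.77, 6.69 and 2.71 FPKM at 1%, and without overlap. Its log2 difference of 0.79 was 0.41 without 1% library 3 and 0.02 with it at 2%. GBE1, the branching enzyme, was the third (log2 difference 0.36) and was named after its values were seen. In glycolysis and glucose uptake 1 of 19 members was lower and 0 were higher. That member was SLC2A1, the basal glucose transporter, at 2.21, 3.36 and 1.54 FPKM at 2% against 6.39, 3.74 and 4.73 at 1% and 2.90, 2.04 and 1.70 in controls (log2 difference -0.83, SE 0.243).

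Genes that handle succinate itself were divided. SLC13A3, a sodium-coupled carrier that takes up succinate and other dicarboxylates, stood at 3.18, 4.10 and 2.92 FPKM at 2%, 10.99, 10.5 and 6.61 at 1% and 4.99, 3.55 and 5.58 in controls. All 3 libraries at 1% were above all those at 2% and all controls, while controls and 2% overlapped. The log2 difference was -1.22 (SE 0.217, unadjusted p = 0.000262, adjusted p = 0.423, limma), and it was -1.42 without 1% library 3 and -1.22 with that library at 2%. The organic anion transporter SLC22A7 had its 2% libraries at 62.6, 83.9 and 62.9 FPKM, above the 55.8, 46.4 and 40.7 at 1%, while controls ranged across both. SLC25A10, the dicarboxylate carrier of the inner mitochondrial membrane, stood at 36.5, 26.9 and 34.7 FPKM at 2% and 29.2, 28.2 and 15.7 FPKM at 1% and overlapped, with a log2 difference of 0.45 that became -0.08 with 1% library 3 placed at 2%. SUCNR1, which encodes the receptor for succinate, did not reach the filter, at 0.611, 0.953 and 0.772 FPKM at 2% and 0.773, 0.638 and 0.449 at 1%, and was not tested. Of the 7 tested genes of succinate uptake and sensing, 1 was lower and 0 higher at an unadjusted p under 0.05.

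The 4 subunits of succinate dehydrogenase did not separate by dose. SDHA, the catalytic flavoprotein, stood at 129 ± 17.5 FPKM at 2% and 118 ± 10.9 at 1% (SD, n = 3), with a log2 difference of 0.12 and an interval of -0.32 to 0.56. For the iron-sulfur subunit SDHB the interval was -0.26 to 0.54, and for the membrane anchors it was -0.33 to 0.61 (SDHC) and -0.48 to 0.52 (SDHD). A difference of 1 on the log2 scale lay outside all 4 intervals. SDHAF1, an assembly factor that helps insert iron-sulfur clusters into the complex, stood at 2.92, 3.53 and 3.56 FPKM at 2% and 5.32, 5.53 and 4.67 at 1%, without overlap. SDHAF3, another assembly factor, overlapped (log2 difference 0.36), and SDHAF1 was the 1 of 8 tested genes of the complex and its assembly at an unadjusted p under 0.05. The count of lower members was 0 when any single 1% library, 2% library 1 or control library 3 was left out. It was also 0 with 1% library 3 at 2%. In the rest of the tricarboxylic acid cycle 0 of 21 members reached an unadjusted p under 0.05 and the median log2 difference was 0.00. IDH1, the cytosolic isocitrate dehydrogenase, stood at 72.4 ± 22.2 FPKM at 2% and 41.9 ± 17.7 FPKM at 1%, with overlap. Its log2 difference of 0.83 was 0.42 without 1% library 3 and 0.008 with it at 2%. On the path from propionate to succinyl-CoA 0 of 10 members reached that p (median 0.11), with log2 differences of 0.42 for the cobalamin processing gene MMACHC and 0.26 for the acetyl-CoA synthetase gene ACSS1.

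**Figure D4:**
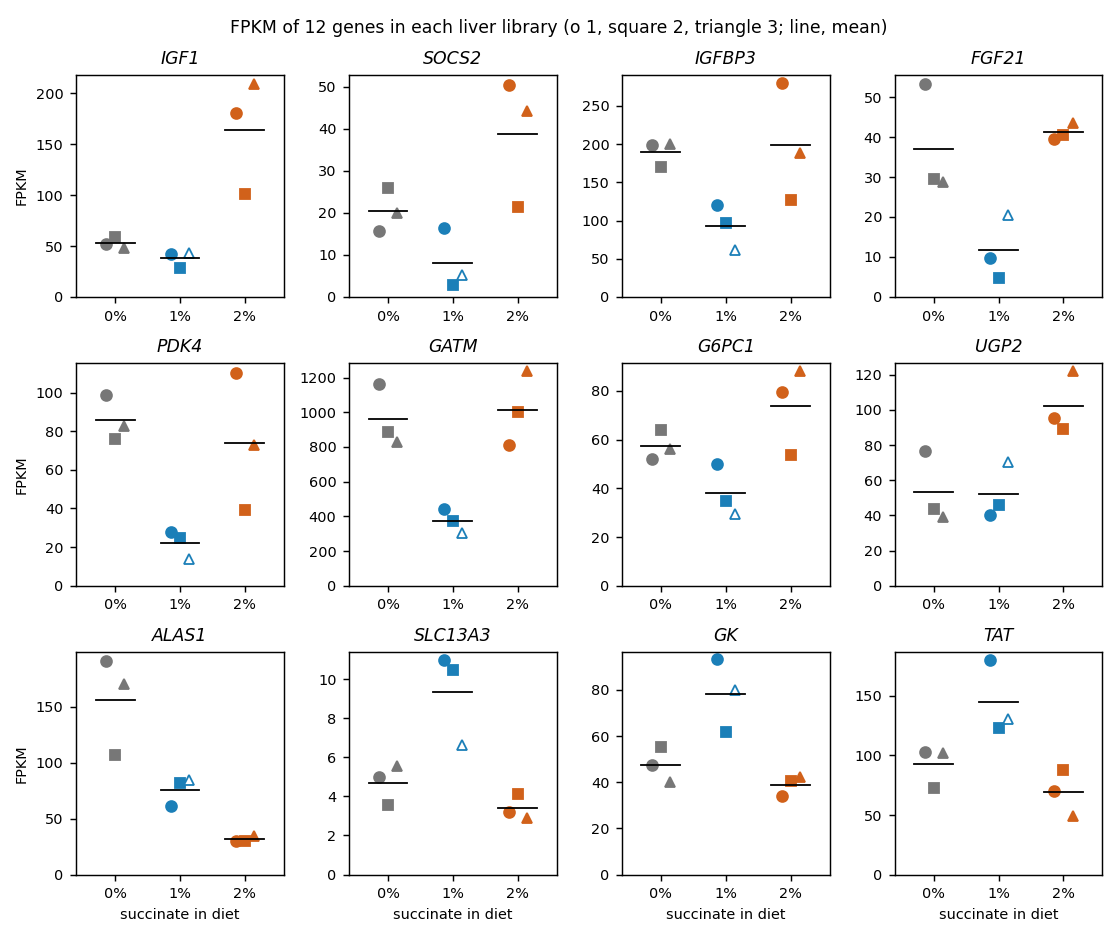
FPKM of 12 genes in each library on control diet (grey), 1% succinate (blue) and 2% succinate (orange), with circles, squares and triangles for libraries 1, 2 and 3 and a line at each mean. The open triangle is 1% library 3, whose title gives 2%. The 12 genes were picked after their values were seen, and all are genes whose 1% and 2% libraries do not overlap, as for 14.3% of tested genes.

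Enzymes of amino acid and creatine metabolism differed in both directions. GATM, which makes guanidinoacetate from arginine and glycine as the first step of creatine synthesis, stood at 812, 999 and 1236 FPKM at 2%, 440.5, 375 and 307 at 1% and 1160.4, 888 and 831 in controls. The 1% libraries lay below all others, and the log2 difference was 1.43 (SE 0.247, adjusted p = 0.423, limma). It was 1.30 without 1% library 3 and 0.87 with it at 2%. In the methionine and one-carbon list 1 of 17 members was higher at an unadjusted p under 0.05 (5.88% against 6.2% of all genes). Another 2 were lower (11.8% against 1.29%), with CTH of cysteine synthesis (-0.78, named after its values were seen) as the second of these. GNMT, which disposes of excess S-adenosylmethionine on glycine, stood at 12.2, 16.2 and 8.33 FPKM at 2% and 18.2, 19.6 and 27.4 at 1%, without overlap. BHMT, which remethylates homocysteine from betaine, stood at 212, 129.7 and 185 FPKM at 2% and 142, 90.8 and 91.0 FPKM at 1% and overlapped through 1% library 1.

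In amino acid catabolism 5 of 25 members (20.0% against 1.29% of all genes) were lower at 2% at an unadjusted p under 0.05 and 2 were higher. TAT, the first enzyme of tyrosine breakdown, stood at 70.5, 88.1 and 49.5 FPKM at 2%, 180.3, 123 and 131 at 1% and 103, 72.6 and 102 in controls, a log2 difference of -1.07 (SE 0.259), or -1.13 without 1% library 3. HAL, which deaminates histidine, stood at 11.1, 21.5 and 10.1 FPKM at 2% and 23.6, 39.3 and 25.1 FPKM at 1%, and SDS, which deaminates serine for gluconeogenesis, at 13.2, 36.6 and 33.1 FPKM at 2% and 122, 53.4 and 199 FPKM at 1%. Neither gene overlapped between doses, but the controls of SDS ranged from 10.5 to 87.0 FPKM. The others that were lower were AASS of lysine breakdown (-0.54) and AGXT, which handles glyoxylate (-0.49). Those that were higher were AMT of the glycine cleavage system (0.88) and PRODH2 of hydroxyproline breakdown (0.70). These 4 were named after their values were seen. The list had 11 members above 0 and 14 below, where 38.2% of all genes lay below. Its median was -0.09, or -0.23 without 1% library 3 and -0.27 with it at 2%. The 5 lower and 2 higher members were 3 and 1 without 1% library 3 and 2 and 0 with it at 2%. They were 3 and 5 without 1% library 1, 4 and 1 without 2% library 1, 6 and 1 without 2% library 2 and 3 and 3 without 2% library 3. In the urea cycle and ammonia list 0 of 13 members reached that p, with log2 differences of 0.64 for ASL and 0.59 for OTC and a median that went from 0.12 to -0.14 without 1% library 3.

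ALAS1, whose enzyme sets the rate of heme production, was ordered by dose. It stood at 30.3, 30.1 and 34.4 FPKM at 2%, 61.3, 81.6 and 84.5 at 1% and 191, 106 and 169.7 in controls, with no overlap between any pair of groups. The log2 difference between the doses was -1.23 (SE 0.238, adjusted p = 0.423, limma), or -1.14 without 1% library 3 and -0.79 with it at 2%. Of the 15 tested heme genes 1 other reached an unadjusted p under 0.05 and was higher, ABCB10 of the mitochondrial inner membrane, at 14.9 ± 2.90 FPKM at 2% against 9.56 ± 2.04 FPKM at 1% with overlap. In the iron list 0 of 14 members did, and its leading members were the zinc and iron transporter SLC39A14 (-0.66) and HJV, a co-receptor that controls hepcidin (0.97, or -0.24 with 1% library 3 at 2%). ISCA2, which assembles mitochondrial iron-sulfur clusters, stood at 4.81, 5.28 and 4.38 FPKM at 2% and 8.09, 8.11 and 8.19 at 1%, without overlap.

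Other genes with the smallest p that were lower at 2% included SGPL1, the lyase that degrades sphingosine 1-phosphate, at 39.3, 48.1 and 36.5 FPKM against 85.5, 72.4 and 86.7. GK, which phosphorylates glycerol, stood at 33.9, 40.4 and 42.4 FPKM at 2% against 93.4, 61.7 and 79.7 FPKM at 1%. EIF2S3, the gamma subunit of the initiation factor that brings the first tRNA to the ribosome, stood at 21.9, 17.6 and 21.5 FPKM at 2% against 31.4, 31.8 and 34.8 FPKM at 1%. The controls of GK overlapped the 2% group, and those of SGPL1 and EIF2S3 lay above it. The receptor tyrosine kinase gene ROS1 had a log2 difference of -1.41, the ribosomal RNA processing gene RCL1 -0.66, the phospholipid scramblase gene PLSCR4 -0.77, the molybdenum cofactor gene GPHN -0.58 and TBATA -1.45. Without 1% library 3 the differences were -0.92 for SGPL1, -0.95 for GK and -0.62 for EIF2S3. None of these 8 genes passed, and their adjusted p was 0.423 to 0.511 (limma).

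On the higher side, PTPN18, a protein tyrosine phosphatase, stood at 26.9, 22.7 and 25.8 FPKM at 2% against 13.2, 7.91 and 7.64 at 1%, with controls at 21.9, 17.7 and 24.3. SMIM10, a small membrane protein, stood at 5.88, 5.78 and 5.33 FPKM at 2% against 2.84, 2.33 and 1.54 FPKM at 1%, and its controls, at 7.72, 8.86 and 9.85, lay above both. TCF7, a transcription factor of Wnt signalling, stood at 7.73, 4.13 and 8.55 FPKM at 2% against 2.91, 1.49 and 1.85 FPKM at 1%. METTL7A, a methyltransferase-like protein of lipid droplets and the endoplasmic reticulum, stood at 87.4, 96.6 and 148 FPKM at 2% against 39.6, 41.5 and 46.2 FPKM at 1%. Each of the 4 had its 1% libraries below all controls. Their log2 differences were 1.34, 1.06, 1.31 and 1.33, and without 1% library 3 they were 1.21, 0.90, 1.27 and 1.39. Log2 differences were 1.12 for the ubiquitin ligase gene SH3RF2, 0.92 for the matrix receptor ANTXR2, 0.86 for the kainate receptor subunit GRIK4, 0.77 for the microtubule linker CLIP1, 1.29 for the glycosyltransferase-like GLT1D1 and 0.99 for the phosphatase CPPED1. The adjusted p of these 10 genes was 0.423 (limma).

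Most members of the lists for protein folding, the proteasome and the acute phase had log2 differences below 0, while few reached an unadjusted p under 0.05. In endoplasmic reticulum folding and the unfolded protein response 28 of 29 tested members lay below 0, against 38.2% of all genes, with a median log2 difference of -0.35. The median was -0.11 without 1% library 3 and 0.12 with that library placed at 2%, and 1 member was lower at that p. That count was 7 without 1% library 1, where 221 of 11882 tested genes were lower. It was 0 without 1% library 3 or with that library at 2%. SDF2L1, a cofactor of the chaperone BiP, stood at 17.4, 20.7 and 19.4 FPKM at 2% and 23.0, 40.9 and 54.8 at 1%. XBP1, the transcription factor of this response, stood at 174, 250.1 and 212 FPKM at 2% and 249.9, 331 and 426 FPKM at 1% and overlapped only between 2% library 2 and 1% library 1. In the proteasome list 28 of 31 members lay below 0, against 38.2% of all genes, and 9 of them were without overlap, against 3.33%. The median of the list was -0.20, or -0.07 with 1% library 3 at 2%. PSMD6, a subunit of its regulatory particle, stood at 48.7, 65.5 and 56.9 FPKM at 2% and 110.2, 83.9 and 127 at 1%, and the regulatory ATPase PSMC4 had a log2 difference of -0.37. Of 20 heat shock chaperones 17 lay below 0, against 38.2% of all genes, and 0 reached that p. Their median was -0.15, or 0.02 with 1% library 3 at 2%. The log2 difference was -0.29 for the mitochondrial chaperone HSPD1 and 0.32 for HSPA4L. The list of the amino acid stress response had a median of 0.01, and its 1 lower member was DDIT4, an inhibitor of mTORC1, at 6.09, 7.88 and 7.19 FPKM at 2% against 13.3, 9.40 and 12.9 at 1%. ASNS, which makes asparagine, had a log2 difference of 0.21.

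Acute phase products varied within the 1% group. Of 12 members 11 lay below 0, against 38.2% of all genes, and 0 reached an unadjusted p under 0.05. Without 1% library 1, 6 members were lower at that p, in a setting where 221 of 11882 tested genes were. The median was -0.49 and ran from -0.85 to -0.28 as single libraries were left out. Their summed level was 27135, 58293 and 47169.7 FPKM at 1%, 25557, 34260.4 and 30624 FPKM at 2% and 19093 to 35776 FPKM in controls. Libraries 2 and 3 at 1% were high, and library 1 at 1% lay within the range of the 2% group. The heme carrier HPX stood at 1029, 1167 and 887 FPKM at 2% and 1223, 2442 and 1689 at 1%, just without overlap, and the copper carrier CP at 433, 706 and 633 FPKM at 2% and 496, 1569 and 1267 at 1%, with overlap. SPP1, a secreted phosphoprotein of bile duct cells and activated macrophages, was high in the same libraries at 0.524, 129 and 112 FPKM at 1% and 1.00, 0.212 and 7.50 at 2%. SOD2, the mitochondrial superoxide dismutase that inflammation induces, stood at 124, 184 and 105 FPKM at 2%, 249.7, 546 and 436 at 1% and 237, 722 and 193 in controls, a log2 difference of -1.54 (SE 0.488). The part of these high libraries in the other results was not tested.

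In lipoprotein assembly 12 of 13 members lay above 0, against 61.8% of all genes, with a median of 0.35, or 0.31 without 1% library 3 and 0.10 with it at 2%. APOA1, the main protein of high-density lipoprotein, stood at 389.5, 343 and 315 FPKM at 2% and 315, 198 and 223 at 1%, so the highest 1% library and the lowest 2% library were nearly equal. TM6SF2, which promotes the loading of very-low-density lipoprotein, stood at 18.7, 14.8 and 16.4 FPKM at 2% and 11.2, 12.4 and 4.84 FPKM at 1% and was the 1 member at an unadjusted p under 0.05. Its log2 difference of 0.84 was 0.46 without 1% library 3 and 0.06 with it at 2%, where 0 members reached that p. Without 1% library 1, 7 of the 13 members were higher at that p, where 1158 of 11882 tested genes were. APOA5 overlapped (log2 difference 1.13, or 0.68 without 1% library 3 and 0.16 with it at 2%). In cholesterol synthesis and uptake 16 of 22 members lay below 0, against 38.2% of all genes, and 2 were lower at that p (9.09% against 1.29%). Among the 2 was FDPS, an isoprenoid synthase, at 3.52, 3.25 and 3.87 FPKM at 2% against 14.8, 4.86 and 4.76 at 1%. In FDPS 1% library 1 stood far above the rest, and the groups did not overlap. The median of that list was -0.17 and ranged from -0.37 to 0.18 as single libraries were left out, and the count of 2 fell to 0 when either library 1 or library 3 at 2% was removed, to 1 when library 2 at 2% was removed, and stood at 3 when library 2 at 1% was removed.

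In fatty acid and triglyceride synthesis 1 of 20 members was higher at that p, the desaturase SCD5, at 1.49, 1.16 and 1.23 FPKM at 2% and 0.729, 0.438 and 0.572 at 1%, and the NADPH source ME1 had a log2 difference of 0.69. In fatty acid oxidation 21 of 26 members lay above 0, against 61.8% of all genes (median 0.21, or 0.04 without 1% library 3 and -0.08 with it at 2%). CPT1B was the 1 member at that p, at 3.97, 4.62 and 7.23 FPKM at 2% and 3.86, 2.50 and 2.42 at 1%, and HADHA of the mitochondrial trifunctional protein overlapped (0.48). In bile acid synthesis and transport 1 of 10 members was higher, BAAT, which conjugates bile acids, at 20.3 ± 6.85 FPKM at 2% against 9.97 ± 6.48 FPKM at 1% with overlap, and AMACR had a log2 difference of 0.88. With 1% library 3 placed at 2% the log2 difference of BAAT went from 1.16 to -0.11 and that of AMACR to -0.23. In the list of drug-metabolising enzymes 16 of 18 members lay above 0, against 61.8% of all genes (median 0.26, or 0.14 without 1% library 3 and -0.03 with it at 2%). Its 1 member at that p was NR1I3, the nuclear receptor CAR, at 34.0, 15.8 and 25.8 FPKM at 2% and 16.8, 10.1 and 3.54 at 1% with overlap. The log2 difference of NR1I3 was 1.38, or 0.835 without 1% library 3 and 0.22 with it at 2%. UGT1A1, which conjugates bilirubin, had a log2 difference of 0.85, or 0.40 and -0.03 in the same settings.

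Among the nuclear genes of the respiratory chain that were tested, an unadjusted p under 0.05 was reached by 0 of 36 for complex I (median 0.05) and 0 of 17 for complexes III to V (median -0.01). The other listed genes of complexes III to V, out of 35, were not analysed here. Log2 differences of their leading members were -0.70 for NDUFB1, -0.37 for NDUFA12, 0.34 for ATP5PD and -0.28 for ATP5F1E. Among transcripts of the mitochondrial genome, ND1, a core subunit of complex I, split within the 2% group. It stood at 286, 2556 and 314 FPKM at 2%, 2100.3, 1066 and 2235 at 1% and 1667, 1528 and 1849 in controls. Libraries 1 and 3 at 2% were thus below all 7 others, while 2% library 2 was the highest. COX1, a core subunit of complex IV, did not share that split, at 18736, 26011 and 22584 FPKM at 2% and 16573, 11093 and 20889.6 at 1%. COX2 stood at 3912, 6217 and 3857 FPKM at 2%, within the range at 1% (5689, 3143 and 6113) except for library 2. ND4L was the 1 of 12 tested members at an unadjusted p under 0.05, at 633, 602 and 820.2 FPKM at 2% and 519, 269 and 436 at 1%. COX1 and COX2 were named after their values were seen. Among 62 cytosolic ribosomal protein genes 43 lay below 0, against 38.2% of all genes, and 0 reached that p (median -0.07), with RPS19 at -0.33.

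Regulators of mitochondrial number had a median of 0.04 with 0 of 17 members at an unadjusted p under 0.05, and the coactivator PPARGC1A (0.53) and the deacetylase SIRT3 (0.33) led them. In the NRF2 and antioxidant list 1 of 22 members was higher, the quinone reductase NQO1 at 6.44, 6.02 and 7.14 FPKM at 2% against 4.33, 4.04 and 2.15 at 1%, and 1 was lower, SOD2. In the oxygen-sensing list the collagen hydroxylase P4HA1 was higher (0.67) and SLC2A1 lower, with 17 of 19 members at neither. The clock list held 1 of 22 members at that p, the repressor BHLHE40 at 55.3 ± 9.65 FPKM against 38.3 ± 9.62 (SD, n = 3) with overlap. Of 12 glucocorticoid receptor targets 9 lay below 0, against 38.2% of all genes (median -0.29, or 0.06 with 1% library 3 at 2%). ZBTB16 stood at -0.56, and TAT was the only member at that p. Of 13 tested cell cycle genes, out of 25 listed, 2 were higher at that p (15.4% against 6.2% of all genes). They were the replication licensing gene MCM5 at 2.57, 2.65 and 3.06 FPKM at 2% against 1.65, 1.53 and 1.54 at 1% and the cyclin gene CCND1 at 18.5, 11.3 and 16.3 against 11.3, 6.91 and 7.36. The median of this list was 0.03, beside 0.07 for all genes, and the count of 2 was 0 with 1% library 3 at 2%.

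Markers of the cell types of the liver were examined in the same way. In bulk tissue, fewer cells of a type and less RNA per cell cannot be told apart. All 12 markers of stellate cells and fibroblasts lay above 0, as did 61.8% of all genes (median 0.37), and 1, the matrix protein gene POSTN (0.73), reached an unadjusted p under 0.05. POSTN overlapped between the doses. The count of 1 was 0 without 1% library 3, with that library at 2% or without control library 3, and 2 without 1% library 2. The summed level of the 12 markers was 220.0, 109 and 325 FPKM at 2% and 105 to 144 FPKM at 1%. The collagen genes COL1A1 (16.8, 3.85 and 32.3 FPKM at 2%, 7.21, 5.50 and 3.93 at 1%) and COL3A1 (45.1, 13.3 and 56.1 at 2%, 17.6, 16.4 and 14.4 at 1%) were high in 2% libraries 1 and 3 and not in library 2, and IGF1 was higher in the same libraries. The part of these cells in the IGF1 difference was not tested.

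Hepatocyte markers were divided, with 9 of 15 above 0, against 61.8% of all genes, and 6 below. Their median was 0.30, or 0.03 without 1% library 3 and -0.05 with it at 2%. ALB stood at 37435 ± 7738 FPKM at 2% and 24609.9 ± 12377 at 1%, and TTR at 4156 ± 609 and 2599.9 ± 1574 (SD, n = 3). The fibrinogen gene FGB, named after its values were seen, went the other way. It stood at 8398, 11818 and 10438 FPKM at 2% and 8771, 21117 and 15615 at 1%, with overlap. Of 10 periportal markers 2 were lower, HAL and SDS (20.0% against 1.29% of all genes). Of 10 pericentral markers 1 was lower (10.0%), the Wnt target AXIN2 at 1.63, 3.33 and 2.77 FPKM against 4.63, 3.81 and 4.86, with TBX3 at -0.63. Of 9 cholangiocyte markers 1 was higher at an unadjusted p under 0.05. The endothelial receptor KDR, at 21.6, 20.1 and 18.9 FPKM at 2% against 14.3, 18.2 and 11.3 FPKM at 1%, was the 1 of 10 endothelial markers, and LYVE1 had a log2 difference of -0.66. The endothelial count was 0 without 1% library 1, without 1% library 3 and with 1% library 3 at 2%. Of 11 T and NK cell markers 1 was higher, CD8A at 3.25, 3.61 and 3.61 FPKM at 2% against 2.51, 1.98 and 2.95 FPKM at 1%, with CD3D at 0.37. Among 10 Kupffer cell and macrophage markers (CD68 at 0.33, MARCO at -0.81) and 5 neutrophil markers (FCGR3A at 0.31, S100A8 at -0.49) 0 reached that p. Antigen processing (0 of 13, median 0.20), interferon-stimulated genes (0 of 21, median 0.01) and complement and coagulation (0 of 29, median 0.07) gave none either. Leading members of these lists were PSMB9 (0.46) and NLRC5 (0.36), IRF1 (0.37), and SERPIND1 (0.46) and F7 (0.41). Lists for B and plasma cells, erythroid cells, adipocytes and skeletal muscle had fewer than 5 tested members, of which CD79A of B cells (0.56) and the sarcomeric actinin gene ACTN2 (0.60) were higher at that p and were named after their values were seen. Their summed levels at 2% were 20.3 to 44.4, 0.28 to 5.42, 8.19 to 14.2 and 2.48 to 5.06 FPKM. ACTA1, the actin of skeletal muscle, had its highest value, 0.217 FPKM, in 2% library 3.

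**Figure D5:**
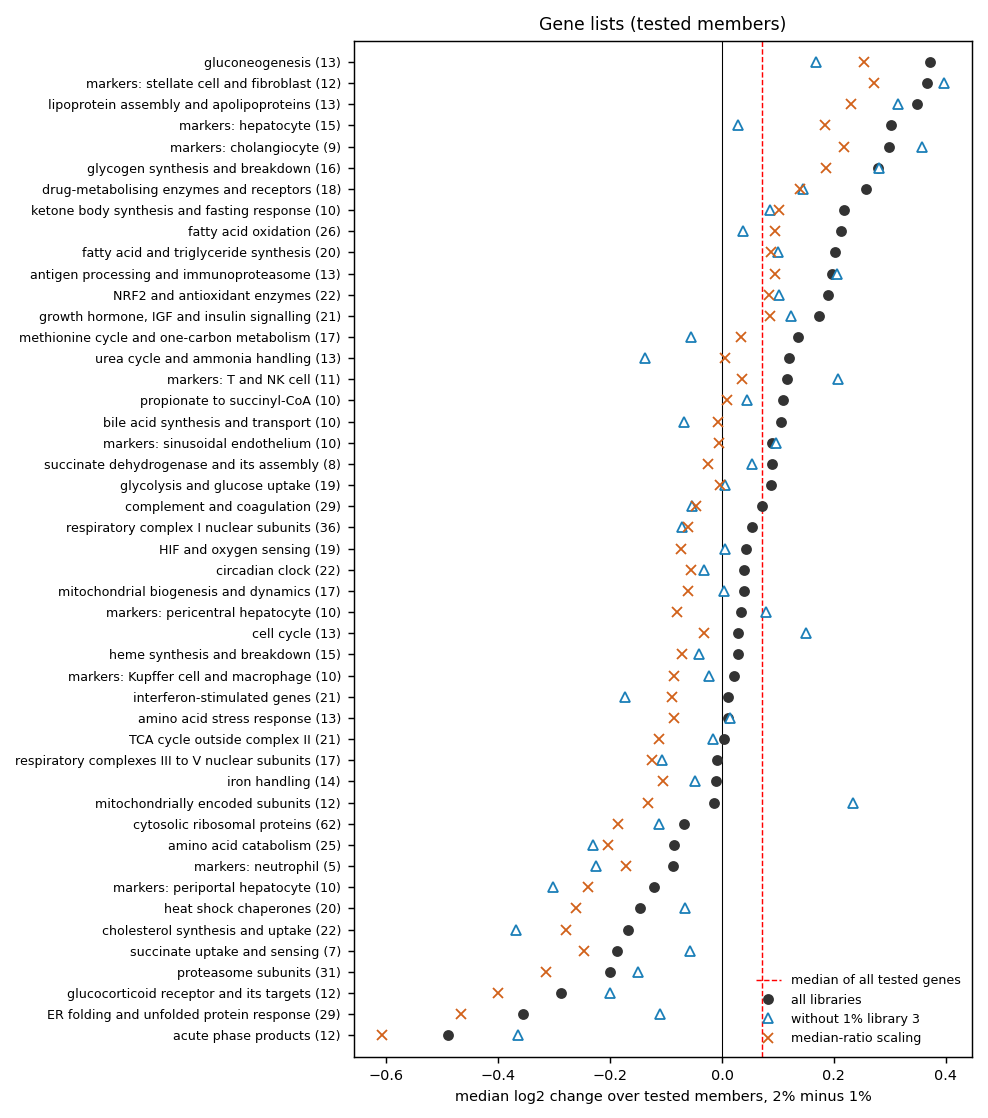
Each row is a gene list with its number of tested members, and circles give the median log2 change of those members from 1% to 2% succinate. Open triangles leave out 1% library 3, crosses use median-ratio scaling, and the dashed line is the median of all genes at 0.07; gluconeogenesis stands highest at 0.37 and acute phase products lowest at -0.49.

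FPKM values are relative within a library, so the share taken by a few genes was compared as well. The 10 most abundant genes took 21.6%, 23.9% and 23.9% of the summed FPKM at 2% and 20.1%, 25.7% and 26.6% at 1% (exact permutation test, two-sided, p = 0.6, where the smallest p this design allows is 0.1). In controls they took 16.9%, 20.1% and 18.6%.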

How the data were processed

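Per the file headers, the authors deposited FPKM (fragments scaled by gene length and library total) for 21257 genes, with 1 column per liver library. Per the labels' protocols, TRIzol was used to extract RNA and the NEBNext Ultra kit to make libraries, which were sequenced from both ends. Which aligner, counter and annotation were used is not given in the sources used here. GRCm38 and mm10 stand in the submitters' processing notes, although the names are those of sheep genes. Strand use and reads shared between paralogs are likewise not given, so near-identical copies are uncertain. Of the names, 20169 matched sheep RefSeq (ARS-UI_Ramb_v3.0), 5117 are LOC identifiers only and 13 mitochondrial tags were given their symbols.

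A gene was tested if 3 or more of the 9 libraries held it at 1 FPKM or above. The test was limma 3.58.1 (R 4.3.3) applied to log2(FPKM + 1), a scale that understates changes of low genes. All 9 libraries entered 1 fit with an intensity trend, p-values are two-sided and Benjamini-Hochberg adjusted over all tested genes, and the method was checked on simulated data. Whole reads were recovered from the FPKM steps for all 17402 genes above 0 in at least 2 libraries, within a tolerance of 0.01, and no library was a copy of another (smallest chi-square per degree of freedom 35.28). Sums and tables used Python 3.11.15 with pandas 2.3.3 and scipy 1.17.1.

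The rule for named genes took, in each direction, the 12 genes of smallest p that have a symbol and do not overlap between doses, 2 members by p from every list with 5 or more tested, and a few fixed genes of succinate handling, hepatocytes, muscle and matrix. The comparison and the 51 lists were chosen with earlier results of these data known. Genes outside this rule, and the 12 genes plotted by library, were chosen after their values were seen. Some genes that the rule takes are not reported here. The lists got no test of their own. Alternatives were a pseudocount of 0.1, other filters, 2 scalings, the conflicting library at 2%, the 6 dosed libraries alone, a replicate block, voom on recovered reads, and leaving out each library.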

Additional observations from a re-analysis of the deposited data

How the results depend on the processing

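No gene passed an adjusted p of 0.05 under any setting except without 1% library 1, where 1 LOC gene did, so the count ranged from 0 to 1 over libraries left out. At an unadjusted p under 0.05 the main count of 894 ranged from 481 to 1379 over libraries left out, with 389 to 1158 higher and 91 to 259 lower. It was 455 (347 higher) with a mean FPKM of at least 5 and 257 (140 higher) with 1% library 3 at 2%. Quantile scaling gave 456 higher and 399 lower, and median-ratio scaling 456 and 522. Deviations of same-numbered libraries at the 2 doses correlated at 0.207, -0.143 and 0.03, and those of controls and dosed libraries at -0.295 to 0.278. With 3 libraries per group these values cannot settle whether library numbers pair the samples. With the replicate block 0 genes passed and 810 reached an unadjusted p under 0.05, and voom on recovered reads gave 0 and 894. The difference in the share of summed FPKM held by the 10 most abundant genes, -0.997 percentage points, became 1.08 with 1% library 3 at 2%, and -2.99 to 0.224 over libraries left out. With that library at 2%, log2 differences that were above 0 took the other sign for ACSS1 (-0.000232), AMACR (-0.226), BAAT (-0.11), FCGR3A (-0.0113), HJV (-0.24), PPARGC1A (-0.0928), SDHAF3 (-0.172), SDHC (-0.046), SDHD (-0.154), SIRT3 (-0.00627), SLC25A10 (-0.0795) and UGT1A1 (-0.0337). SDHD was also -0.101 with median-ratio scaling and ran from -0.0951 to 0.203 over libraries left out, SDHC from -0.000734 to 0.248 and ATP5F1E from -0.512 to 0.00653. The 12 genes with the smallest p in each direction kept their direction under each listed setting in which they were tested. They were chosen for groups that did not overlap. Leaving out a library or changing the pseudocount therefore could not reverse them, and this is no evidence that they are robust. The cause of these shifts was not tested.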
